A study of Arabidopsis thaliana with 6 samples.

Results

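A set of 10 genes of the ETHYLENE RESPONSE FACTOR (ERF) family that respond to stress and wounding were followed in root meristems of Arabidopsis thaliana. They were chosen by locus identifier, with earlier results of these data known. The genes are ERF1A, ERF2, ERF4, ERF5, ERF6, ERF11, ERF104, ERF105, ERF109 and ERF115. All 10 have a row among the 32678 genes of the deposited count table. RNA was sequenced in bulk from meristems cut by hand from seedlings aged 5 days, which grew under long days at 23 °C on agar with Murashige and Skoog salts and 1% sucrose. Of the 6 libraries, 3 are labelled Col0, the wild-type laboratory accession, and 3 are labelled papl1-1papl2, the double mutant cog1-6cdf4, with lesions in the Dof transcription factor genes COG1 and CDF4. The labels give 1 mutant line and no batch, and they say that the best replicates by RNA quality were kept. They do not say whether the libraries came from separate plates or harvests, so p-values measure the spread between these libraries only.

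ERF proteins bind DNA through a single AP2/ERF domain, and some of them act at the last step of the ethylene pathway. In that pathway the membrane receptors, the kinase CTR1 and the protein EIN2 control the transcription factors EIN3 and EIL1. Several ERF genes are also switched on within minutes by wounding, touch, pathogens or reactive oxygen, through MAP kinases and calcium signals. ERF1A, ERF2, ERF5, ERF6, ERF104 and ERF105 belong to family group IX, whose proteins mostly activate genes with a GCC box. ERF4 and ERF11 belong to group VIII and carry an EAR motif, a short sequence that recruits co-repressors. ERF109 and ERF115 belong to group X. In roots, ERF109 links jasmonate and redox stress to auxin synthesis, and ERF115 drives the replacement of damaged stem cells.

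Library totals ranged from 17849704 to 20914576 counts, so that a floor of 3 counts corresponded to 0.143 to 0.168 CPM (read counts relative to library size), which covers counting error only. All CPM values carry the TMM scaling of edgeR (trimmed mean of M-values). Markers of the root meristem were alike in both genotypes in their sum over 5 genes, at 184 to 188 CPM in the Col0 libraries and 177 to 187 CPM in the papl1-1papl2 libraries. Singly, PLT1 was higher in all papl1-1papl2 libraries than in any Col0 library (means 39.6 and 36.3 CPM). WOX5 was at 0.841 and 0.422 CPM on average, with overlapping values, and PLT2, SCR and SHR had lower means in papl1-1papl2. Leaf mesophyll markers summed to 4.07 to 5.57 CPM and 4.32 to 4.93 CPM over 4 genes, and RBCS1A, a subunit of Rubisco, had 0 counts in every Col0 library and 5, 0 and 2 counts in the papl1-1papl2 libraries. Replicate 3 labelled papl1-1papl2 stood apart in summed root hair markers, at 25.5 CPM over 5 genes. The other mutant libraries were at 42.2 and 48.3 CPM, and the Col0 libraries at 37.0 to 43.2 CPM. Most of the sum in replicate 3 was RHD6, at 24.3 CPM. COBL9 and RSL4 were also lowest in that library, while RHS19 (0.726 CPM) lay within its Col0 range. RSL4 was at 0.279 CPM in replicate 3, 4.16 and 3.22 CPM in mutant replicates 1 and 2 and 0.429 to 0.738 CPM in Col0. The mutated loci did not have fewer reads in the mutant. COG1 (AT1G29160) was at 11.5 ± 0.977 CPM in the Col0 libraries and 19.5 ± 2.72 CPM in the papl1-1papl2 libraries (SD, n = 3 for each), and CDF4 (AT2G34140) at 4.02 ± 0.484 and 5.99 ± 0.423 CPM. The direction of every difference therefore rests on the labels. In bulk RNA, fewer cells of a type and less RNA per cell cannot be told apart.

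The ERF genes with enough reads to be tested were 2.05 to 3.39 times as abundant in the papl1-1papl2 libraries as in the Col0 libraries. Expression of ERF4, ERF6, ERF104 and ERF1A rose, and ERF5, with a fold change of similar size, just missed the threshold. None of the 10 genes was lower on average in the mutant, and 8 of them had all 3 mutant values above all 3 Col0 values. Across the table, 17720 genes had enough counts to be tested, and 2.76% of them passed an adjusted p threshold of 0.05 in the edgeR quasi-likelihood fit, 2.23% higher and 0.525% lower in papl1-1papl2. Of the 10 members 5 were tested, and 4 of these 5 were called, all higher. The 5 tested members were above the filter level of 0.505 CPM in every Col0 library, so none was tested only because it was high in the mutant. Their median log2 fold change was 1.26, against 0.00 over all tested genes. All 5 had groups that did not overlap, with papl1-1papl2 higher, against 11.7% of tested genes, and the other 3 of the 8 were not tested. With papl1-1papl2 lower, the groups did not overlap for 9.8% of tested genes, a pattern that 0 of the 10 members showed. The members were chosen with earlier results of these data known, so setting them beside these shares is not a test.

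**Figure D1:**
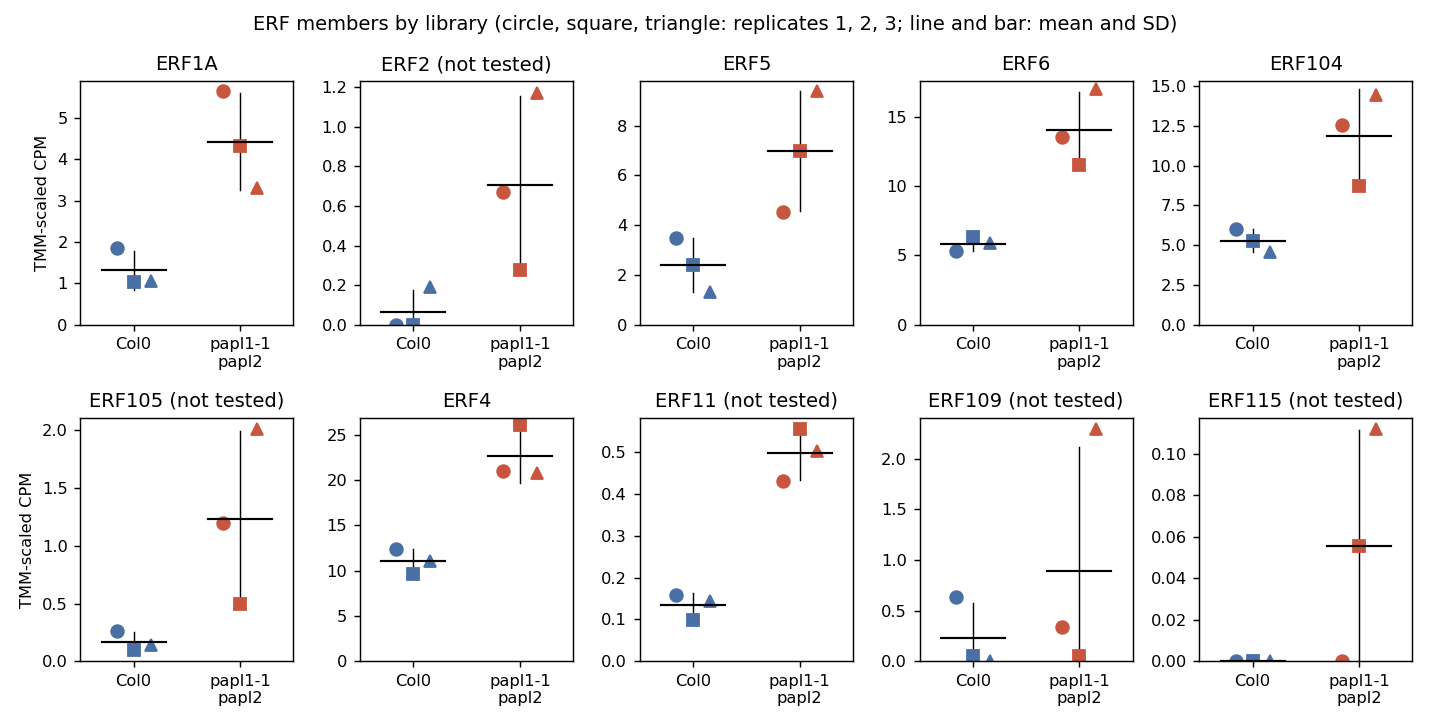
TMM-scaled CPM of the 10 ERF genes in each library, with Col0 in blue and papl1-1papl2 in red, the mean as a line and the SD as a bar that ends at 0 where it would fall below. Each axis starts at 0 and has its own scale. All 3 papl1-1papl2 values lie above all 3 Col0 values in 8 panels, and overlap them for ERF109 and ERF115.

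Among the 6 members of group IX, ERF6 and ERF104 were the most abundant. ERF6 (AT4G17490, chromosome 4) encodes a substrate of the MAP kinases MPK3 and MPK6 that takes part in defence and in growth arrest under osmotic stress. It was at 5.32, 6.30 and 5.86 CPM in replicates 1 to 3 of Col0 and at 13.5, 11.5 and 17.0 CPM in replicates 1 to 3 of papl1-1papl2. The lowest mutant value was well above the highest Col0 value. The log2 fold change of ERF6 was 1.26 (SE 0.15), with an edgeR quasi-likelihood adjusted p of 0.00468, which ranked it 64 among 17720 genes by p. Its call held in all 12 alternatives tried, with adjusted p up to 0.0450.

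ERF104 (AT5G61600, chromosome 5) encodes a factor that is released from MPK6 upon flagellin perception. It was at 6.01, 5.26 and 4.57 CPM in the Col0 libraries and at 12.5, 8.70 and 14.4 CPM in the papl1-1papl2 libraries. The groups did not overlap, and replicate 2 was the lowest of the mutant libraries, as it was for ERF6. The log2 fold change of ERF104 was 1.17 (SE 0.19), with an edgeR quasi-likelihood adjusted p of 0.0157. Without 1 Col0 library the adjusted p was 0.0661 (replicate 1), 0.0596 (replicate 2) or 0.0853 (replicate 3) in the same edgeR test, so the call was lost in these 3 fits.

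ERF1A (AT4G17500, chromosome 4) and ERF5 (AT5G47230, chromosome 5) were less abundant and more variable. ERF1A, one of the first ERF proteins isolated by its binding to the GCC box, was at 1.84, 1.04 and 1.05 CPM in the Col0 libraries and at 5.65, 4.32 and 3.30 CPM in the papl1-1papl2 libraries, on 21 to 118 counts. Here replicate 1 was the highest library of both genotypes, and the groups did not overlap. The log2 fold change of ERF1A was 1.76 (SE 0.30), the largest of the tested members, with an edgeR quasi-likelihood adjusted p of 0.0167. That call was lost without Col0 replicate 2 (adjusted p = 0.0655 in the edgeR test), without Col0 replicate 3 (0.0930) and without papl1-1papl2 replicate 2 (0.0655).

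ERF5, a close relative of ERF6 that acts in chitin and osmotic stress responses, was at 3.48, 2.38 and 1.33 CPM in the Col0 libraries and at 4.55, 6.99 and 9.39 CPM in the papl1-1papl2 libraries. The spread within each genotype was about as wide as 2-fold, 2.61-fold from lowest to highest in Col0 and 2.06-fold in papl1-1papl2, but the groups did not overlap. Its log2 fold change of 1.54 (SE 0.35) missed the threshold, with an edgeR quasi-likelihood adjusted p of 0.0543. ERF5 passed without papl1-1papl2 replicate 1 (adjusted p = 0.0245 in the edgeR test) or replicate 3 (0.0342), with no filter on low counts (0.0203) and in the DESeq2 Wald test (0.000187), and had its highest adjusted p without Col0 replicate 3, at 0.170.

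ERF2 (AT5G47220) and ERF105 (AT5G51190), both on chromosome 5, had too few reads for the filter. ERF2, the nearest relative of ERF1A, had 0, 0 and 4 counts in the Col0 libraries and 14, 5 and 21 counts in the papl1-1papl2 libraries. ERF105, a relative of ERF104 with a role in cold tolerance, had 5, 2 and 3 counts against 25, 9 and 36. For both genes all 3 mutant libraries were above all 3 Col0 libraries, with replicate 3 the highest and replicate 2 the lowest. With no filter on low counts, the log2 fold change was 3.29 (SE 0.93) for ERF2, with an edgeR quasi-likelihood adjusted p of 0.0987, and 2.84 (SE 0.62) for ERF105, with an adjusted p of 0.0274. The RefSeq annotation of TAIR10.1 places all exon bases of ERF105 inside AT5G51180 on the opposite strand, a gene at 26.0 to 30.1 CPM in the Col0 libraries and 28.9 to 32.1 CPM in the papl1-1papl2 libraries. The use of strand in counting is not given in the sources used here, so reads of ERF105 are uncertain.

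The repressors were led by ERF4 (AT3G15210, chromosome 3), which dampens ethylene and jasmonate responses. ERF4 was at 12.4, 9.62 and 11.1 CPM in the Col0 libraries and at 21.1, 26.1 and 20.8 CPM in the papl1-1papl2 libraries. The values within a genotype were close together, with a highest-to-lowest ratio of 1.29 in Col0 and 1.25 in papl1-1papl2, and the groups lay far apart. The log2 fold change of ERF4 was 1.04 (SE 0.13), the smallest of the tested members, yet its edgeR quasi-likelihood adjusted p of 0.00445 was the lowest of them. It ranked 61 by p and held its call in all 12 alternatives, with adjusted p up to 0.0282. ERF11 (AT1G28370, chromosome 1), a second EAR repressor that also limits ethylene synthesis, had only 3, 2 and 3 counts in the Col0 libraries and 9, 10 and 9 counts in the papl1-1papl2 libraries. The counts were low but did not overlap, and with no filter the log2 fold change was 1.84 (SE 0.60) at edgeR quasi-likelihood adjusted p = 0.159.

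In group X, neither gene separated the genotypes. ERF109 (AT4G34410, chromosome 4, also named RRTF1) had 12, 1 and 0 counts in the Col0 libraries and 7, 1 and 41 counts in the papl1-1papl2 libraries. Replicate 3 of the mutant held most of the reads, and replicate 1 of Col0 was above 2 of the 3 mutant libraries. Without replicate 3 the mutant mean was 0.195 CPM, under the Col0 mean of 0.227 CPM. With no filter the log2 fold change was 1.97 (SE 1.13) at edgeR quasi-likelihood adjusted p = 0.493. ERF109 overlaps 2 annotated genes on the opposite strand, which cover 47.7% and 16.3% of its exon bases, so its few reads are uncertain. The gene behind the smaller overlap, AT4G34412, was at 12.2 CPM in each Col0 library and had a log2 fold change of -0.01. ERF115 (AT5G07310, chromosome 5) had 0 counts in every Col0 library and 0, 1 and 2 counts in the papl1-1papl2 libraries, at or under the floor of 3 counts in all 6, so a difference was not detectable at this depth.

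Levels of different genes were compared as TMM-scaled CPM per kb of annotated exon. In the Col0 libraries the order was led by ERF4 at 9.67 ± 1.23 CPM per kb, followed by ERF6 at 4.35 ± 0.365, ERF104 at 3.80 ± 0.517, ERF5 at 1.84 ± 0.824 and ERF1A at 1.10 ± 0.388 (SD, n = 3). ERF105, ERF109, ERF11, ERF2 and ERF115 were all below 0.2 CPM per kb on average. Libraries of ERF6 and ERF104 overlapped, as did those of ERF5 and ERF1A, so the order within these pairs is not beyond the spread. In the papl1-1papl2 libraries the first 7 places were the same, from ERF4 at 19.8 ± 2.6 CPM per kb through ERF6 at 10.5 ± 2.06, ERF104 at 8.56 ± 2.09, ERF5 at 5.35 ± 1.86 and ERF1A at 3.72 ± 0.991 to ERF105 at 1.28 ± 0.784 (SD, n = 3). ERF4 remained separate from ERF6, while ERF104 and ERF5 now overlapped. Summed over the 10 genes, the level was 30.1, 24.8 and 24.3 CPM in the Col0 libraries and 60.0, 59.0 and 70.9 CPM in the papl1-1papl2 libraries.

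**Figure D2:**
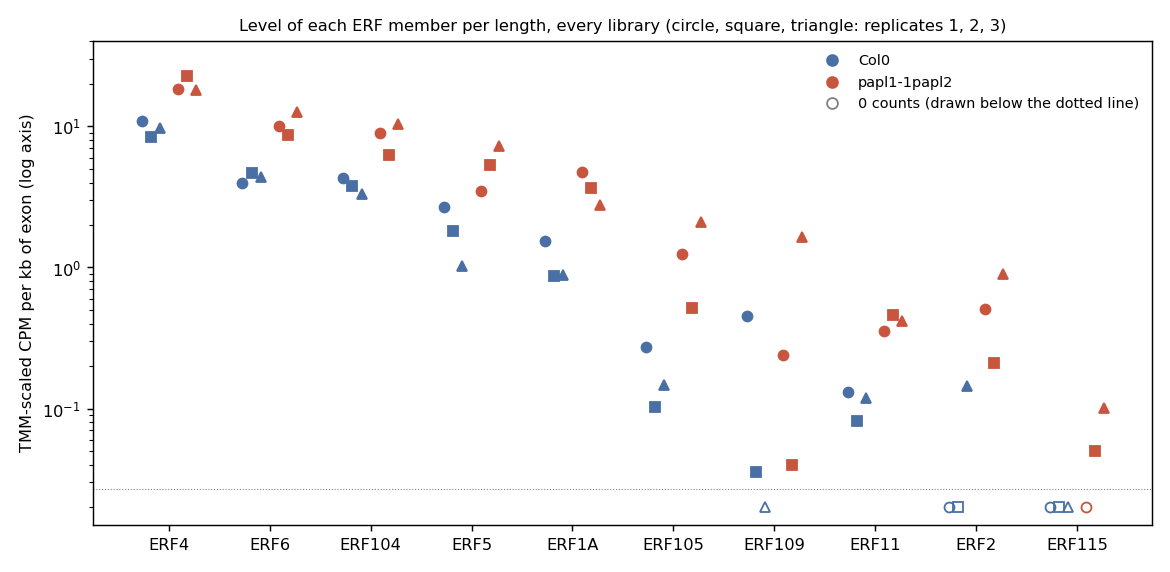
Level of each ERF gene in every library as TMM-scaled CPM per kb of exon on a log axis, ordered by the Col0 mean, with Col0 in blue and papl1-1papl2 in red and open symbols for 0 counts. ERF4 is the highest gene in both genotypes, and 5 genes sit below 0.2 CPM per kb on average in Col0.

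The members did not all follow the same libraries. Of the 10 genes, 7 were highest among the mutant libraries in replicate 3 (ERF2, ERF5, ERF6, ERF104, ERF105, ERF109 and ERF115), 2 in replicate 2 (ERF4 and ERF11) and 1 in replicate 1 (ERF1A). For ERF11 the highest library had 10 counts against 9 in each of the others, so its order is within counting error. The order of ERF115 rests on 0, 1 and 2 counts, under the floor. ERF104 had 262 counts in replicate 1 and 258 in replicate 3, so replicate 3 was its highest only after scaling. The ratio of highest to lowest mutant library was 1.25 for ERF4, 1.29 for ERF11, 1.47 for ERF6, 1.66 for ERF104 and 1.71 for ERF1A. It was 2.06 for ERF5, 4.03 for ERF105, 4.23 for ERF2 and 41.3 for ERF109 (1 to 41 counts). ERF115 has no ratio, as its lowest count was 0. In Col0, 7 of the 10 genes were highest in replicate 1. Replicate 3 of the mutant, the library with the lowest summed root hair markers (EXP7 had 0 counts there and in Col0 replicate 3), was also the one with the highest summed ERF level, and the part of root hair tissue in these values was not tested. Without that library, 6 members were called, ERF1A, ERF4, ERF5, ERF6, ERF104 and ERF105, among 1164 genes in all. Of the other markers, those of differentiated endodermis were higher in the mutant, at 6.03 to 8.33 CPM over 4 genes against 2.57 to 3.62 CPM. Nearly all of this was MYB36, a regulator of endodermal differentiation, which rose with a log2 fold change of 1.15 (SE 0.17; edgeR adjusted p = 0.00961), while CASP1 and CASP2 had 0 to 4 counts in the Col0 libraries, 4 to 12 in papl1-1papl2 replicates 1 and 2 and 0 in replicate 3, and GPAT5 had 0 counts in all 6 libraries. Summed root cap markers were at 74.7 to 80.1 CPM over 4 genes in Col0 and 59.2 to 77.1 CPM in papl1-1papl2, and xylem vessel markers at 11.9 to 14.3 and 9.83 to 19.4 CPM. Their part in the ERF values was not tested.

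Of the 10 genes, 4 lie in 2 pairs on the chromosomes, and promoters of 3 members share sequence. By the RefSeq annotation of TAIR10.1, ERF6 and ERF1A stand 5041 bases apart on chromosome 4 with their starts facing each other across the gap, and no protein-coding gene between them. ERF2 and ERF5 have the same arrangement on chromosome 5, 6924 bases apart with 1 protein-coding gene between them. Each pair thus joins an ERF1A-type with an ERF5-type gene. ERF6 exceeded ERF1A and ERF5 exceeded ERF2 in every library, also as CPM per kb. Except for ERF115, with 1 intron in its coding sequence, the members have none, and none shares a stretch of 50 exon bases with a gene elsewhere in the genome.

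The 250 bases before the annotated start were read from TAIR10.1 for each member and compared. ERF1A and ERF2 share an unbroken stretch of 26 bases, the longest of the 45 pairs of members. With the longest stretch of each pair taken, the next pair shared 13 bases and the median was 9. No other of 27443 protein-coding promoters holds all 26 bases. Its first 11 bases, CGCACGTGTTT, contain the G box core CACGTG and recur in the promoter of ERF109. In all, 7 promoters (0.0255%) hold these 11 bases on either strand. The core CACGTG alone also occurs in the promoter of ERF4, printed below, and its share over all promoters was not counted. The promoters of ERF1A, ERF2 and ERF109 are shown 5′ to 3′ with this stretch in capitals (26 bases in ERF1A and ERF2, 11 in ERF109). Other stretches that these promoters share are not marked. The capitals begin 88, 41 and 136 bases before the start of ERF1A, ERF2 and ERF109.
ERF1A (chr4:9758953-9759202, plus strand): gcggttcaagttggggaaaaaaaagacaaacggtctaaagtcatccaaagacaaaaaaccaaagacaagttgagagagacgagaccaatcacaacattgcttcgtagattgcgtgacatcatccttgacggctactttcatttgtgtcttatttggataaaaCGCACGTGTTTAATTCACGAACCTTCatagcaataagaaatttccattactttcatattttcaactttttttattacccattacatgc
ERF2 (chr5:19172957-19173206, minus strand): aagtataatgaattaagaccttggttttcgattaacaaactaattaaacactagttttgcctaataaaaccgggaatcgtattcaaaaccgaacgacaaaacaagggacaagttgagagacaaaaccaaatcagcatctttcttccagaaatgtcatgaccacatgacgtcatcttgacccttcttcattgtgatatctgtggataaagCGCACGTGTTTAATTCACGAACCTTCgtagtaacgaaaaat
ERF109 (chr4:16451626-16451875, plus strand): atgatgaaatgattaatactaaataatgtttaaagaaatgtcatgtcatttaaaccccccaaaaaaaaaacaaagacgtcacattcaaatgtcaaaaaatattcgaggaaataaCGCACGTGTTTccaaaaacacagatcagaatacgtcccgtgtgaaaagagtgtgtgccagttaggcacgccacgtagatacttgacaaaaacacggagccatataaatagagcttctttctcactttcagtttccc

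Motifs named for stress and for Dof factors were counted in the same windows on both strands. The W box core TTGAC, bound by WRKY factors, was in 8 of the 10 promoters and in 44.9% of all promoters. The GCC box GCCGCC, the ERF proteins' own site, was only in that of ERF11 among the members, against 1.87% of all promoters, and the stress element CGCGTT was in none of the 10, against 2.59%. The Dof core AAAG was in all 10 and in 98.0% of all promoters, so it does not set the members apart. Among the matches in the 10 promoters, 1 overlap was found: in ERF4 a W box core shares 1 base with a Dof core, which is not marked. ERF4 and ERF6 are shown as the members with the 2 lowest p-values and ERF11 as the holder of the GCC box, with TTGAC (or GTCAA on the other strand) and GCCGCC in capitals. ERF4 has 2 W box cores and ERF6 none.
ERF4 (chr3:5121053-5121302, plus strand): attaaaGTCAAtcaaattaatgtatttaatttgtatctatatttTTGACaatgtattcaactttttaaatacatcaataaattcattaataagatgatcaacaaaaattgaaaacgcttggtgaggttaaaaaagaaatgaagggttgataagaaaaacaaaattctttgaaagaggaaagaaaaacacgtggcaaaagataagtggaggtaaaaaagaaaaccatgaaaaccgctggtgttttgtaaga
ERF6 (chr4:9754162-9754411, minus strand): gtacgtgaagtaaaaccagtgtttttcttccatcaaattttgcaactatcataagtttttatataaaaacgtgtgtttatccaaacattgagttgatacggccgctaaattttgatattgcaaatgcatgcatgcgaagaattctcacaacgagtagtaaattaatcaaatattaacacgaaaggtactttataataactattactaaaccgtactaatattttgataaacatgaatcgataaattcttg
ERF11 (chr1:9956981-9957230, minus strand): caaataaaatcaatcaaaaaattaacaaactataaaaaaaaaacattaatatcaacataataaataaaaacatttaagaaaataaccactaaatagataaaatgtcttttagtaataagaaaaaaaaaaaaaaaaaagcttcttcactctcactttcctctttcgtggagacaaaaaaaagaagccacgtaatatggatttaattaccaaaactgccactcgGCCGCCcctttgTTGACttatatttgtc

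Other genes of the ERF family were compared by group. Among the other group VIII repressors, 0 of 5 tested genes passed in the edgeR quasi-likelihood test, and their median log2 fold change was 0.03, from -0.22 to 0.27. ERF8, with the smallest p of them, had a log2 fold change of 0.27 (edgeR adjusted p = 0.417). ERF12, which lies 2668 bases from ERF11, had 1 to 7 counts in any library. In group IX, 5 of 10 other genes had 0 counts in all libraries, among them ERF1B and ORA59, the integrators of ethylene and jasmonate defence. Over the 4 tested the median was 1.07 (log2 fold change), and it was -0.08 over the 2 that were above the filter level in every Col0 library, ERF15 and ERF106, without ERF13 and ERF107. Of the 4, 1 was called, in the opposite direction: ERF15 (AT2G31230) fell from 5.92 ± 0.535 to 3.63 ± 0.369 CPM (SD, n = 3), with a log2 fold change of -0.71 (SE 0.16), at edgeR quasi-likelihood adjusted p = 0.0490. ERF15 was at 6.27, 5.31 and 6.19 CPM in the Col0 libraries and 3.25, 3.99 and 3.63 CPM in the others. Its call was lost without any 1 of Col0 replicates 1, 2 and 3 (adjusted p = 0.203, 0.0764 and 0.197 in the edgeR test) or papl1-1papl2 replicates 1 and 2 (0.117 and 0.108).

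ERF107, next to ERF104 at a distance of 832 bases, had a log2 fold change of 1.76 (SE 0.49) on 3 to 30 counts and missed the threshold, with an edgeR quasi-likelihood adjusted p of 0.107. ERF13 was at 0.909, 0.776 and 2.90 CPM in the mutant libraries and 0.896, 0.347 and 0.286 CPM in the Col0 libraries, with replicate 3 of the mutant and replicate 1 of Col0 highest, as for ERF109. Of the other group X genes 0 of 3 tested passed in the edgeR test, with a median log2 fold change of 0.50, or 0.31 without ABR1. ABR1, a repressor of abscisic acid responses, had a log2 fold change of 1.16 (SE 0.36) with groups that did not overlap; it was under the filter level in Col0, and its edgeR adjusted p was 0.153. ERF112 had the smallest p of these, at a log2 fold change of 0.50, at edgeR quasi-likelihood adjusted p = 0.150, and passed without papl1-1papl2 replicate 3 (0.00475). In group VII, which senses low oxygen through protein stability, 0 of 4 tested genes passed in the edgeR test and the median was 0.11. RAP2.2, with the smallest p of the group, had a log2 fold change of 0.13, at edgeR quasi-likelihood adjusted p = 0.301 (edgeR). Over all tested genes, 2823 had an unadjusted p under 0.05 in the edgeR test, and RAP2.2, ERF13, ERF112, ERF107 and ABR1 were among these. By the DESeq2 Wald test the counts in groups VIII, X and VII were likewise 0.

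**Figure D3:**
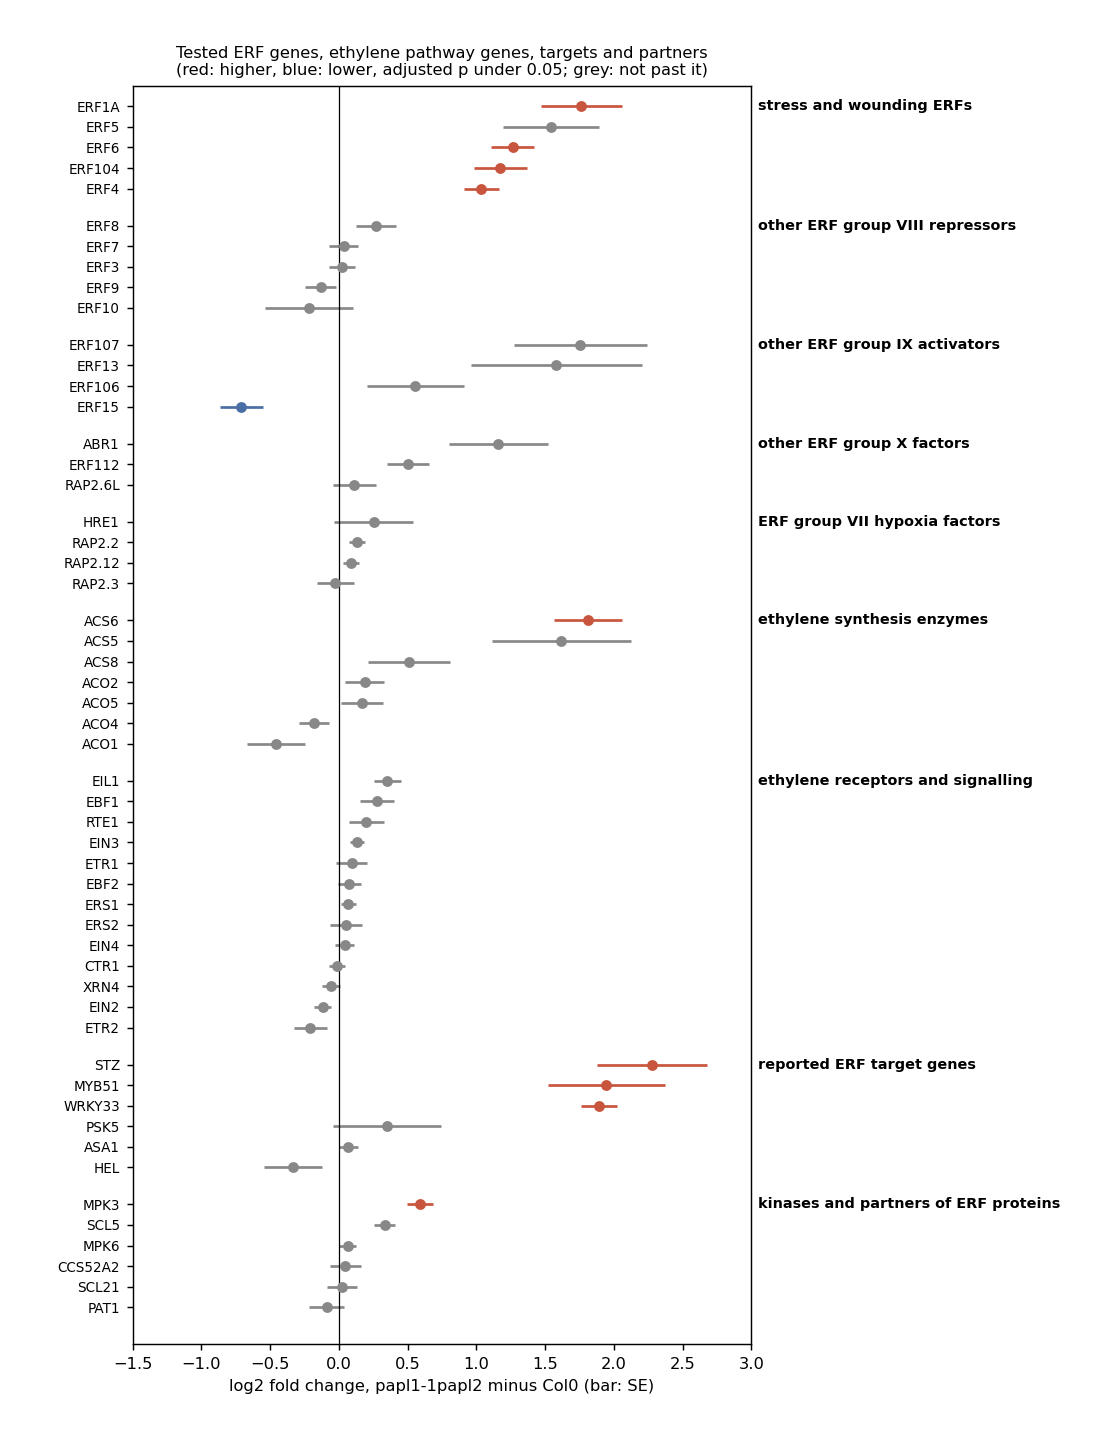
Log2 fold change of papl1-1papl2 over Col0 for each tested gene, grouped by list, with the SE as a bar, red for genes called higher, blue for genes called lower and grey for genes that did not pass an adjusted p of 0.05. The tested stress and wounding ERFs lie between 1.04 and 1.76, while receptor and signalling genes lie between -0.21 and 0.35.

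Genes of ethylene perception were then compared, since some ERF proteins act downstream of it. Of 13 receptor and signalling genes, all tested, 0 passed in the edgeR quasi-likelihood test or the DESeq2 Wald test, and the median log2 fold change was 0.07, from -0.21 to 0.35. EIL1, a transcription factor that activates ethylene target genes, had the smallest p, with a log2 fold change of 0.35 (SE 0.10), at edgeR quasi-likelihood adjusted p = 0.113; EIL1 and EIN3 were the genes of the list with an unadjusted p under 0.05. EIL1 passed without papl1-1papl2 replicate 3 (0.0497). Levels of ETR2, ERS2 and EBF2, which are themselves induced by ethylene, gave log2 fold changes of -0.21 (SE 0.12), 0.05 (SE 0.12) and 0.08 (SE 0.08). EBF1, RTE1 and ERS1 of the same list gave 0.28 (SE 0.12), 0.20 (SE 0.13) and 0.07 (SE 0.05). The tested members were at 1.04 to 1.76. Whether the response to ethylene differed between the genotypes was not tested.

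Ethylene synthesis gave 1 call among 7 tested genes, ACS6 (AT4G11280), an ACC synthase that MPK3 and MPK6 stabilise after stress. ACS6 was at 3.90, 1.98 and 2.71 CPM in the Col0 libraries and at 7.66, 11.3 and 11.3 CPM in the papl1-1papl2 libraries. The groups did not overlap, and the log2 fold change of ACS6 was 1.81 (SE 0.25), with an edgeR quasi-likelihood adjusted p of 0.00704 that stayed at or below 0.0443 in all 12 alternatives. The median of the list was 0.19. ACS5 was at 2.11, 1.94 and 0.559 CPM in the mutant libraries and 0.333 to 0.595 CPM in Col0. Its groups overlapped, and it missed the threshold with an edgeR quasi-likelihood adjusted p of 0.154. Without papl1-1papl2 replicate 3, 5 genes of this list were called, ACS5, ACS6, ACS7 and ACO5 higher and ACO1 lower in papl1-1papl2, and 2 of the receptor and signalling list, EIL1 and EBF1, both higher.

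Among genes reported as targets of these factors, 6 of 10 were tested. GA2OX6 and CHIB were among those not tested, both with 0 counts in every Col0 library. In papl1-1papl2 replicates 1 to 3, GA2OX6 had 4, 1 and 0 counts and CHIB 2, 2 and 0. WRKY33 and STZ, above the filter level in every Col0 library, were called higher, and so was MYB51, which was not above it. WRKY33, a regulator of camalexin synthesis and a target of ERF6, rose from 8.57 ± 0.201 to 31.9 ± 5.79 CPM (SD, n = 3), with an edgeR quasi-likelihood adjusted p of 0.000427. STZ, a zinc finger repressor also placed downstream of ERF6, was at 1.74, 0.942 and 1.43 CPM in the Col0 libraries and at 4.07, 5.16 and 10.8 CPM in the papl1-1papl2 libraries, highest in replicate 3 as most ERF genes were. Its log2 fold change was 2.28 (SE 0.40) at edgeR quasi-likelihood adjusted p = 0.0201. The adjusted p in the edgeR test was 0.0891, 0.0747 and 0.0945 without Col0 replicates 1, 2 and 3 and 0.0505 without papl1-1papl2 replicate 2. MYB51, a regulator of indole glucosinolates, was under the filter level in Col0 and was tested only through its mutant libraries. It had 3 to 5 counts in Col0 and 11 to 20 in papl1-1papl2, with an edgeR quasi-likelihood adjusted p of 0.0478, which was lost in 8 of its 11 alternatives and reached 0.219 without Col0 replicate 3; the call held without papl1-1papl2 replicate 3 and was lost on leaving out any of the other libraries (0.108 to 0.219).

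The other reported targets that were tested, ASA1, PSK5 and HEL, gave no call. ASA1, an enzyme of tryptophan synthesis that ERF109 activates, had a log2 fold change of 0.07 (SE 0.07). YUC2, the auxin synthesis gene named beside it, had 0 counts in all 6 libraries. PSK5, a peptide hormone gene downstream of ERF115, had a log2 fold change of 0.35 (SE 0.39). PDF1.2, the defensin gene of the ethylene and jasmonate branch, had 0 counts in every library, and HEL, another defence gene of that branch, was at 6.06 ± 0.981 CPM in Col0 and 4.81 ± 1.24 CPM in papl1-1papl2 (SD, n = 3).

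Of 6 kinases and partners of ERF proteins, all tested, 1 passed. MPK3 (AT3G45640), the kinase that acts on ERF6, was at 9.12, 9.08 and 9.95 CPM in the Col0 libraries and at 13.2, 14.9 and 14.3 CPM in the papl1-1papl2 libraries. These groups did not overlap, and the log2 fold change was 0.59 (SE 0.10) at edgeR quasi-likelihood adjusted p = 0.0161. The call was lost without Col0 replicates 1, 2 or 3 (adjusted p = 0.0885, 0.0606 and 0.0557 in the edgeR test) and without papl1-1papl2 replicate 2 (0.0765), and 10.3% of the exon bases of MPK3 overlap a gene on the opposite strand. MPK6, its relative that binds ERF104, had a log2 fold change of 0.06 (SE 0.06). The GRAS protein gene PAT1 and its relatives SCL5 and SCL21, whose products join ERF115 in wound responses, had log2 fold changes of -0.09, 0.33 and 0.02 and did not pass. SCL5 had groups that did not overlap and an edgeR adjusted p of 0.0542, and it was called with upper-quartile factors and without papl1-1papl2 replicate 3. The median of the 6 genes was 0.05.

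Genes whose profile over the 6 libraries was most like the mean of the 5 tested members were found by the root mean square difference of log2 CPM, each profile centred on its own mean. Among 6293 genes with a symbol and a mean of at least 5 CPM, the nearest were TET8 (a tetraspanin, 0.12), EXL2 (an EXORDIUM-like protein, 0.13), RAV2 (an AP2 and B3 domain transcription factor, 0.14), PUP14 (a purine permease that takes up cytokinin, 0.15) and CZF1 (a CCCH zinc finger protein, 0.15). The members themselves were at 0.20 (ERF104), 0.23 (ERF6), 0.24 (ERF4), 0.35 (ERF1A) and 0.37 (ERF5) from their own mean. The 5 named genes were nearer to it than any member was, but they were picked as the nearest of 6293 and the members were not. TET8 was at 4.95, 4.46 and 4.19 CPM in the Col0 libraries and at 11.8, 11.8 and 11.1 CPM in the papl1-1papl2 libraries. Of the exon bases of PUP14, 11.9% overlap a gene on the opposite strand. RAV2 was at 16.1 to 18.7 CPM in Col0 and 37.2 to 42.2 CPM in papl1-1papl2. The profile includes the genotype difference, and all 5 genes were called higher in the edgeR test, with log2 fold changes of 1.17 to 1.56.

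**Figure D4:**
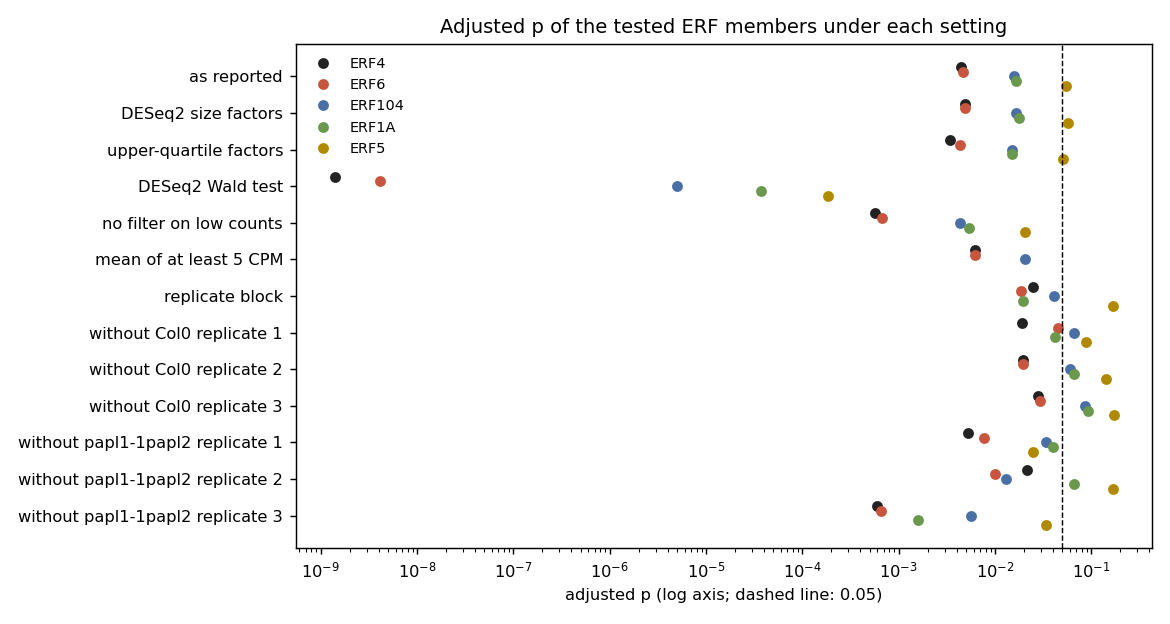
Adjusted p of the 5 tested ERF genes on a log axis, as reported and under each of 12 alternatives, with a dashed line at 0.05. ERF4 and ERF6 stay left of the line in every setting, ERF104 and ERF1A cross it in 3 each, and ERF5 lies right of it as reported and left of it in 4. ERF1A and ERF5 have no value where a mean of at least 5 CPM was required.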

How the data were processed

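The authors deposited unnormalised whole-number counts for each gene, with 1 column per library, per the file headers and the values. TopHat2, HTSeq, DESeq, DESeq2 and the TAIR10 build are named in the submitters' processing notes, with no role or version; strand setting and annotation release are not given in the sources used here. Columns were matched to samples by genotype and number in the titles. Of the 32678 identifiers, 31912 matched the RefSeq annotation of TAIR10.1, which gave symbols, exons, overlaps and promoter sequence; coordinates are of that assembly, and names of list genes it does not hold (8, ERF109 among them) are from general knowledge.

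Genes were filtered with filterByExpr of edgeR 4.0.16 under R 4.3.3 (minimum count 10, minimum total 15) and scaled by TMM. The 6 libraries entered 1 fit of genotype alone (glmQLFit, glmQLFTest); p-values were adjusted by Benjamini-Hochberg over 17720 tested genes, with a threshold of 0.05. SEs are the absolute log2 fold change over the square root of F. Log2 CPM used a prior count of 2. The fit was tested on simulated data. DESeq2 1.42.0, other scalings and filters, a replicate block and leaving out each library were alternatives. The members, lists and motifs were chosen with earlier results of these data known; the shared promoter stretch was searched for after the data were seen. Named genes are the members, the called genes of each list (at most 4, else the smallest p), the 5 nearest profiles and the mutated loci; ABR1, ACS5, ERF13 and others beside these were named after their values were seen. Pairs of libraries of a genotype differed by more than sampling noise (chi-square over its degrees of freedom 4.21 to 16.2). The highest values were those of papl1-1papl2 replicate 3, at 16.2 with replicate 1 and 9.60 with replicate 2. All other pairs were at 4.21 to 5.42.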

Additional observations from a re-analysis of the deposited data

How the results depend on the processing

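None of the 5 tested members reversed in any alternative; of the untested members, which were refitted only where the filter let them pass, ERF109 had a lower mean in papl1-1papl2 than in Col0 without papl1-1papl2 replicate 3 (0.195 against 0.227 CPM). Of the members, 4 were called as reported, 2 at the stricter threshold of 0.01, and from 2 to 6 when 1 library was left out, 2 without Col0 replicate 2 or 3 (ERF4 and ERF6) and 6 without papl1-1papl2 replicate 3; they were 3 to 6 in the other alternatives. The 489 genes called in all were 744 by the DESeq2 Wald test, 140 at an adjusted p under 0.01, 259 with the replicate block and 144 to 1164 without 1 library. Leaving out a library lets genes pass the filter on fewer libraries, so up to 8 members were then tested. In the edgeR fit with the replicate block the same 4 members were called, while ERF15 (adjusted p = 0.150), MPK3 (0.0542) and MYB51 (0.114) were not. Same-numbered libraries did not deviate together (correlations across genes of -0.00913, -0.0601 and -0.107), and 0 of 6 libraries correlated best with its own number, so the numbers were not taken as pairs. Counts in the pathway lists moved by over 1.5 times, or to or from 0, in 25 of 104 list and setting combinations. The cause of these shifts was not tested. Levels per kb used the longest transcript as an alternative length, which differed for ERF11 only and moved its Col0 mean from 0.111 to 0.112 CPM per kb. Depth limits the 5 members under the filter (ERF2, ERF11, ERF105, ERF109 and ERF115), with 0 to 12 counts in any Col0 library.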

Other observations

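The 11 bases shared by the promoters of ERF1A, ERF2 and ERF109 occur in 7 promoters, and the other 4 belong to genes outside the ERF family. AT4G18950, annotated as an integrin-linked protein kinase, was at 59.0 to 64.5 CPM in the Col0 libraries and 63.2 to 71.6 CPM in the papl1-1papl2 libraries. RGP2, a protein of cell wall synthesis, was at 948 to 1007 CPM in Col0 and 823 to 937 CPM in papl1-1papl2. AT5G39790 and AT5G39800 had log2 fold changes of 0.00 and -0.08. None of these 4 passed in the edgeR quasi-likelihood test, with adjusted p of 0.353 to 0.989. RGP2 and AT4G18950 had unadjusted p of 0.0661 and 0.0803 in that test. Of the 3 ERF genes with the stretch, ERF1A was called higher, ERF2 was too low to be tested and ERF109 had overlapping groups on few reads; a role of the stretch was not tested. These genes were chosen after the shared stretch had been found.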
